A study of Mus musculus with 16 samples.

Results

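Expression of 10 genes that move calcium in the working heart muscle cell was described in the mouse left ventricle after TAC, transverse aortic constriction, an operation that narrows the aorta and makes the ventricle pump against a raised pressure. The genes encode proteins of calcium release (Ryr2, Casq2, Casq1 and Hrc), uptake into the sarcoplasmic reticulum (Atp2a2, Pln and Sln), exchange across the cell membrane (Slc8a1) and entry through the L-type channel (Cacna1c and Cacnb2). A probe set, a group of short probes that report on 1 transcript, was taken where the platform annotation gave it exactly 1 gene symbol and that symbol was 1 of the 10. The rule found 19 probe sets among the 22690 on the array, and 16 of them, covering 9 genes, lay above the limit of dim signal described below. Each of the 10 genes had at least 1 probe set.

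At each heartbeat calcium enters the cardiomyocyte through L-type channels and opens ryanodine receptors, which let a larger amount out of the sarcoplasmic reticulum to start contraction. Relaxation follows when the SERCA pump returns calcium to the store, under the control of the small inhibitors phospholamban and sarcolipin, and when the sodium-calcium exchanger carries the rest out of the cell. Reduced expression of the pump is a known feature of the failing heart in several mammals.

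The groups were male TAC, female TAC, male sham and female sham, with 4 arrays each and 16 in all. All mice were C57BL/6J, were 12 to 14 weeks old and carried no engineered allele in the labels. The TAC animals were operated on under ketamine and isoflurane with buprenorphine afterwards, and the anaesthesia of sham animals was not described separately. RNA was taken from the left ventricle 14 days after the operation, and each array held the RNA of a separate animal. The series asks how the sexes differ in the early response. TAC is a model of pressure load only, and the labels give neither a pressure gradient nor a heart weight.

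The tissue label was checked against defining markers. All 9 ventricular cardiomyocyte markers lay above the limit of dim signal, and their summed signal was 261466 to 320182 on male TAC arrays, 226570 to 294488 on female TAC arrays, 298816 to 368523 on male sham arrays and 314101 to 337926 on female sham arrays. Averaged over the sexes, 7 of these 9 markers fell with TAC and 1 rose, and their median change was -0.31 on the log2 scale. The summed signal of 8 fibroblast markers was 30706 to 53557 on male TAC arrays and 28985 to 42556 on female TAC arrays, against 17159 to 20802 on male sham arrays and 20517 to 24057 on female sham arrays. In bulk tissue, fewer cardiomyocytes and less RNA per cardiomyocyte cannot be told apart, which applies to every fall below. The 3′ to 5′ signal ratio of Gapdh, a measure of RNA and labelling quality, was 1.004 to 1.16 on male TAC and 0.958 to 1.03 on female TAC arrays, against 0.837 to 0.921 on male sham and 0.785 to 0.918 on female sham arrays. The log2 signal of the 5′ 18S rRNA control was 9.11 to 13.2 on male TAC and 9.35 to 10.7 on female TAC arrays, against 12.7 to 13.8 on male sham and 10.8 to 12.8 on female sham arrays. The numbers that end the sample titles run in blocks by group, and if they record an order of work, that order and the groups cannot be told apart.

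The upstream sequences of 4 genes are shown as examples, whose transcripts moved together or, for Casq2, the opposite way. Letters known from muscle promoters occur in them, and also in those of genes not shown, such as Cacna1c, Cacnb2 and Slc8a1. RefSeq promoters of the build GRCm38.p6 were given for 8 of the 10 genes, 11 promoters in all, and not for Atp2a2 and Sln. Each line gives the 250 bases before the annotated start, 5′ to 3′ on the gene's own strand, with motif matches in capitals.
Pln, chr10:53337436-53337685, plus strand: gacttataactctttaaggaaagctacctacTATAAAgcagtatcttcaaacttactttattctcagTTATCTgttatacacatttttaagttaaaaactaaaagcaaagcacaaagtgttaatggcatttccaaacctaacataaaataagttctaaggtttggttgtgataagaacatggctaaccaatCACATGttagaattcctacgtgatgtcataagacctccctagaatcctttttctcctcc
Ryr2, chr13:12106946-12107195, minus strand: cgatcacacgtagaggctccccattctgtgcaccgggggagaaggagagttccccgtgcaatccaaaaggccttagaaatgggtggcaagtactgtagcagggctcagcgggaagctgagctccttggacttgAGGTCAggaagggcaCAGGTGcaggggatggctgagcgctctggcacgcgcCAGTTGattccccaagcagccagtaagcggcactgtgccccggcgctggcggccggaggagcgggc
Hrc, chr7:45335019-45335268, plus strand: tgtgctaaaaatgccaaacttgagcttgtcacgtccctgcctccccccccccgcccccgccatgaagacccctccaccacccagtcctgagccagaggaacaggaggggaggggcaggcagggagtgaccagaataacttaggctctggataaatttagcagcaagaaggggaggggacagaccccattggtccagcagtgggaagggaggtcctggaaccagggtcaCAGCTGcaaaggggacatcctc
Casq2, chr3:102086165-102086414, plus strand: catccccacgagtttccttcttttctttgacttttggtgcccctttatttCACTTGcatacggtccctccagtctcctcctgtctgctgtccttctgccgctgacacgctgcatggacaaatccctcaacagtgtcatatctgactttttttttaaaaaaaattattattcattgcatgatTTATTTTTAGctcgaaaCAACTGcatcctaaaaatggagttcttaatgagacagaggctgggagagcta
The motifs searched on both strands were the promoter box TATAAA, the motif AGATAA of erythroid and cardiac zinc finger factors, the nuclear receptor motif AGGTCA, the E box CANNTG, and the MEF2 and CArG motifs by name. In the Pln sequence the capitals mark TATAAA at 219 to 214 bases before the start, the zinc finger factor motif on the other strand, TTATCT, at 183 to 178, and the E box CACATG at 59 to 54. In the Ryr2 sequence they mark AGGTCA at 117 to 112 bases before the start, and the E boxes CAGGTG at 102 to 97 and CAGTTG at 66 to 61. In the Hrc sequence they mark the E box CAGCTG at 22 to 17 bases before the start. In the Casq2 sequence they mark a MEF2 motif at 69 to 60 bases before the start, and the E boxes CACTTG at 200 to 195 and CAACTG at 52 to 47. None of the matches shown overlaps another. Among 32851 promoters cut to the same length, an E box occurred in 66.2%, AGGTCA in 14.0%, TATAAA in 12.4%, AGATAA in 9.99%, a MEF2 motif in 2.92% and a CArG motif in 1.47%. The matches are descriptions of the letters and not binding sites.

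Signals are the deposited linear values, scaled by the authors to a common trimmed mean per array. Fold changes are differences of group means of log2(signal + 16), TAC minus sham, and they understate the change of dim probe sets. They were tested with limma over 13576 probe sets, with Benjamini-Hochberg adjustment and a threshold of 0.05, and "rose" and "fell" are used only past it. Signals of different probe sets are not set against each other, since probes differ in brightness.

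Of the release genes, Ryr2 and Hrc fell with TAC in both sexes and Casq2 rose, while Casq1 rose only for the average of the sexes. The uptake genes Atp2a2 and Pln and the channel genes Cacna1c and Cacnb2 fell in both sexes, Cacnb2 on a probe set too dim in TAC to be measured. The exchanger gene Slc8a1 missed the threshold in males, and its probe sets did not share a direction. The 16 probe sets above the limit cover 9 genes, with repeat readings of Atp2a2, Pln, Ryr2 and Slc8a1. The counts below are therefore not counts of separate genes. Of the 16 probe sets, 13 passed the threshold in males, 12 lower and 1 higher, where 17.8% of all probe sets passed (9.77% lower and 8.07% higher). In females 13 passed, again 12 lower and 1 higher, where 15.1% of all probe sets passed (8.6% lower and 6.46% higher). For the average of both sexes 15 passed, 13 lower and 2 higher, where 28.7% of all probe sets passed (15.8% lower and 12.9% higher). The median log2 fold change of the 16 was -0.61 in males, -0.54 in females and -0.55 for the average of both, beside -0.03 over all probe sets in each comparison. In males the TAC arrays lay wholly below the sham arrays for 11 of the 16 and wholly above for 1, where 10.9% and 8.75% of all probe sets did so. In females they lay wholly below for 10 and above for 2, where 11.6% and 8.29% did so. The TAC arrays lay wholly below the sham arrays in both sexes for 9 of the 16, where 5.75% of all probe sets did so, and wholly above them for 1, where 3.87% did so. These counts hold 3 probe sets with a TAC mean below the limit, which were kept through their other arrays (1421126_at of Ryr2, 1420210_at of Slc8a1 and 1452476_at of Cacnb2). On the remaining 13, 11 passed in males and 11 in females, each 10 lower and 1 higher, and 13 for the average, 11 lower and 2 higher. Their medians were -0.56 in males, -0.51 in females and -0.49 for the average, and the TAC arrays lay wholly below the sham arrays for 9 in males, 8 in females and 7 in both. With the Gapdh ratio as a covariate, 4 probe sets passed in each sex and 4 for the average. The 4 were 1452363_a_at and 1427251_at of Atp2a2 and 1450952_at and 1423359_at of Pln in each comparison. With the 18S signal as a covariate, 7 passed in males, 10 in females and 8 for the average, and these 4 were again among them. In each sex the Gapdh ratios of TAC and sham arrays do not overlap, so that covariate and the operation can hardly be separated.

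**Figure D1:**
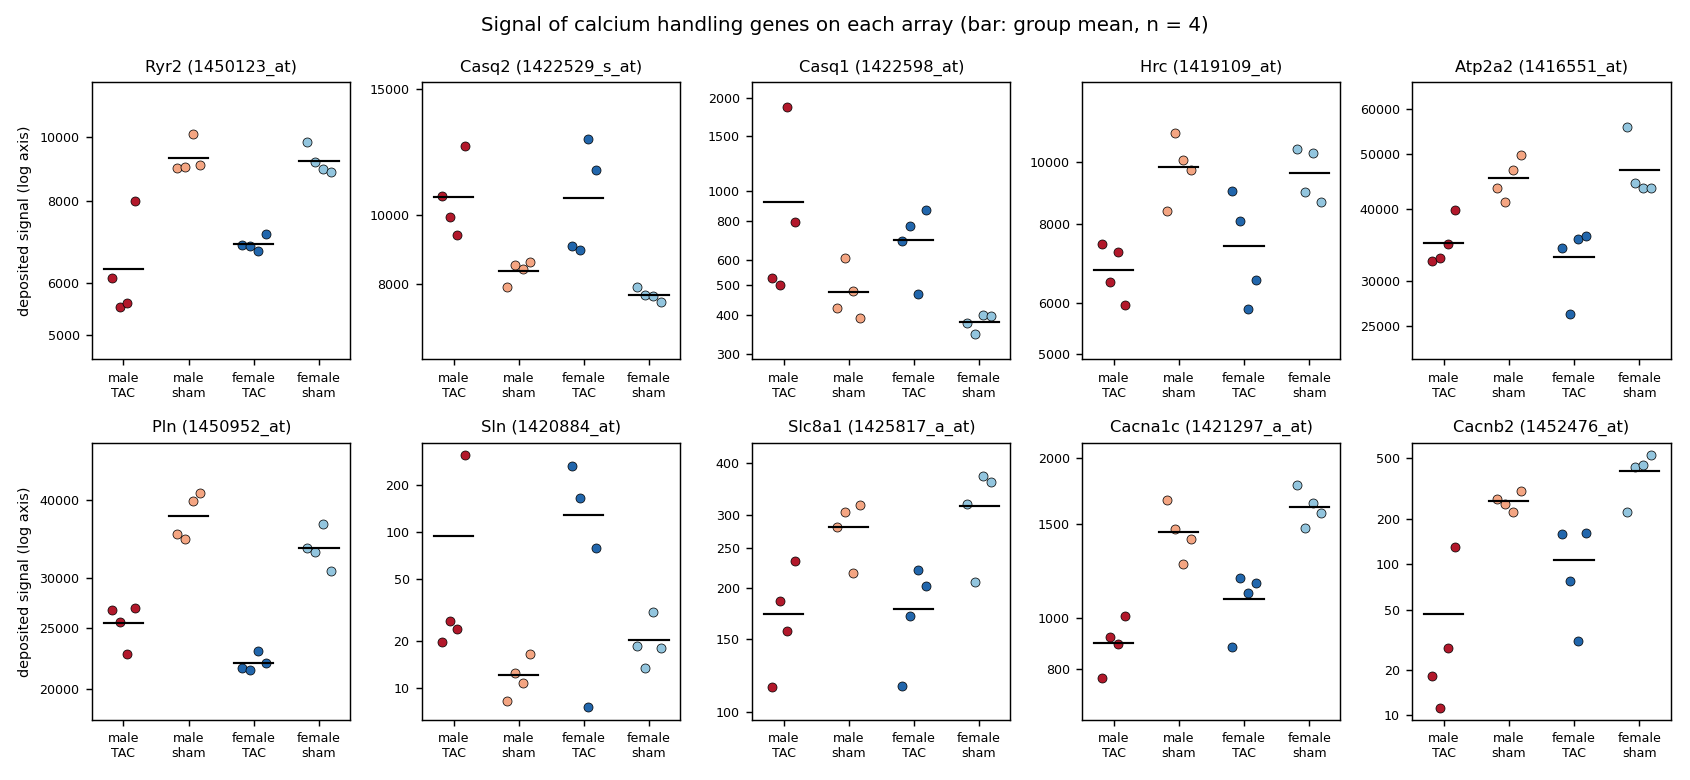
Deposited signal (log axis) of the brightest probe set of each of the 10 genes on the 16 arrays, by group, where each point is 1 array and each bar a group mean of 4. The TAC points of Ryr2, Pln, Atp2a2, Cacna1c and Cacnb2 lie below the sham points of the same sex, and those of Casq2 lie above them.

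Ryr2 encodes the ryanodine receptor, the release channel of the cardiac sarcoplasmic reticulum (chr13:11553099-12106945, GRCm38.p6). Its brighter probe set, 1450123_at, had signals of 6115, 5522, 5594 and 8011 on male TAC arrays 1, 2, 4 and 5, against 8973, 9018, 10096 and 9065 on male sham arrays 1 to 4. On female TAC arrays 1, 2, 3 and 5 it had 6868, 6824, 6707 and 7121, against 9819, 9162, 8934 and 8843 on female sham arrays 1 to 4. Every TAC array was below every sham array of its sex, and male TAC 5 was the highest TAC array. Ryr2 fell by 0.57 on the log2 scale in males (SE 0.10, adjusted p = 0.000601) and by 0.42 in females (SE 0.10, adjusted p = 0.00870). The female call did not pass on median centring (adjusted p = 0.101), and neither call passed once the 18S signal was added to the model (adjusted p = 0.163 in males and 0.112 in females). The dim probe set 1421126_at averaged 120.0 ± 49.2 in male TAC and 128 ± 44 in female TAC, against 295 ± 39 in male sham and 316 ± 37 in female sham (SD, n = 4 each). Its groups do not overlap in either sex. Its TAC means are below the signal of 130.8 that set the limit, so it was kept through its sham arrays and does not count beside the brighter probe set. With TAC arrays under the limit set to it, TAC was at least 1.98-fold lower in males and 2.06-fold lower in females.

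Casq2 encodes cardiac calsequestrin, the main calcium-binding protein inside the sarcoplasmic reticulum (chr3:102086415-102146514). Its probe set 1422529_s_at had signals of 10636, 9934, 9391 and 12486 on the male TAC arrays, against 7940, 8523, 8417 and 8586 on the male sham arrays. It had 9048, 8951, 12786 and 11557 on the female TAC arrays, against 7943, 7731, 7716 and 7548 on the female sham arrays. All TAC arrays were above all sham arrays of the same sex, with the widest spread among female TAC arrays. Casq2 rose by 0.33 in males (SE 0.11, adjusted p = 0.0424) and by 0.43 in females (SE 0.11, adjusted p = 0.0111), or 1.31-fold averaged over the sexes (adjusted p = 0.000906). The male call was near the threshold and missed it without any 1 of 7 of the 8 male arrays (all but male TAC 4), with adjusted p of 0.0557 to 0.139, and without a filter (adjusted p = 0.0776). A probe set name ending in _s_at marks probes shared by more than 1 transcript, so a contribution of a related transcript was not tested.

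Casq1 encodes the calsequestrin of fast skeletal muscle (chr1:172209894-172219895). Its probe set 1422598_at had signals of 526, 498, 1866 and 795 on the male TAC arrays, against 419, 609, 478 and 391 on the male sham arrays. It had 689.5, 769.6, 467.2 and 867.1 on the female TAC arrays, against 377, 346, 399.8 and 396 on the female sham arrays. Male TAC 4 was far above the rest, the male groups overlap, and the female groups do not. The log2 fold change was 0.74 in males (SE 0.29, adjusted p = 0.0902) and 0.82 in females (SE 0.29, adjusted p = 0.0659), and neither passed. Without male TAC 4 the male value was 0.33 (adjusted p = 0.324), so its size rests on that array, and it passed without male TAC 1 or 2 (adjusted p = 0.0442 and 0.0386). The female value passed without female TAC 3 (adjusted p = 0.0391). With both sexes averaged Casq1 rose 1.72-fold (log2 0.78, SE 0.21, adjusted p = 0.00736), a call that was lost with the 18S signal (adjusted p = 0.207) or the Gapdh ratio (adjusted p = 0.0533) as a covariate. The summed signal of 7 other fast skeletal muscle markers was 433 to 526 in male TAC and 279 to 419 in female TAC, against 420 to 668 in male sham and 477 to 597 in female sham, so it was not higher in either TAC group. All 7 were below the limit of dim signal.

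Hrc encodes the histidine-rich calcium-binding protein of the sarcoplasmic reticulum, which binds triadin and the SERCA pump (chr7:45335269-45338973). Its probe set 1419109_at had signals of 7438, 6487, 7233 and 5956 on the male TAC arrays, against 8368, 11122, 10066 and 9731 on the male sham arrays. It had 9012, 8073, 5887 and 6524 on the female TAC arrays, against 10502, 8984, 10327 and 8668 on the female sham arrays. The male groups do not overlap, and female TAC 1 lies within the range of the female shams. Hrc fell by 0.53 in males (SE 0.13, adjusted p = 0.00587) and by 0.40 in females (SE 0.13, adjusted p = 0.0387). The female call was lost without female TAC 3 or 5 or female sham 1, 2 or 3, with adjusted p of 0.0509 to 0.139, and on median centring (adjusted p = 0.127).

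Atp2a2 encodes SERCA2, the pump that refills the sarcoplasmic reticulum (chr5:122453513-122502225). It had 4 probe sets, and the brightest, 1416551_at, had signals of 32474, 32847, 34819 and 39855 on the male TAC arrays, against 43590, 41245, 46912 and 49888 on the male sham arrays. It had 34224, 26244, 35459 and 35875 on the female TAC arrays, against 55688, 44511, 43615 and 43626 on the female sham arrays. Neither sex shows overlap, with female TAC 2 low and female sham 1 high within their groups. On this probe set Atp2a2 fell by 0.38 in males (SE 0.11, adjusted p = 0.0208) and by 0.51 in females (SE 0.11, adjusted p = 0.00314). On quantile normalization the values shrank to -0.14 in males (adjusted p = 0.309) and -0.16 in females (adjusted p = 0.235), and neither passed. The male call was also lost without male TAC 1 or 2 or male sham 3 or 4 (adjusted p of 0.0570 to 0.0692). Median centring (adjusted p = 0.0889), no filter (0.0871) and no intensity trend (0.0714) removed it too. With the 18S signal as a covariate its adjusted p was 0.441. With the Gapdh ratio as a covariate neither sex passed (adjusted p = 0.916 in males and 0.285 in females).

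The other 3 Atp2a2 probe sets differed in the size of the change. The next brightest, 1452363_a_at, had signals of 25761, 25870, 24566 and 25904 on the male TAC arrays, against 38812, 36651, 40559 and 43529 on the male sham arrays. It had 24539, 23479, 24014 and 24156 on the female TAC arrays, against 32964, 35816, 39416 and 35860 on the female sham arrays. The TAC arrays of each sex lay close together and far below the shams. It fell by 0.64 in males (SE 0.08, adjusted p = 9.61e-06) and by 0.58 in females (SE 0.08, adjusted p = 4.47e-05), where quantile normalization gave -0.37 in females (adjusted p = 0.00326). Probe set 1427251_at averaged 704 ± 107 in male TAC and 894 ± 188 in female TAC, against 2032 ± 41 in male sham and 2230 ± 308 in female sham (SD, n = 4 each). It fell 2.87-fold in males (log2 -1.52, adjusted p = 1.41e-06) and 2.49-fold in females (log2 -1.32, adjusted p = 1.04e-05). Probe set 1427250_at averaged 5368 ± 1018 in male TAC and 6364 ± 926 in female TAC, against 7294 ± 465 in male sham and 7090 ± 1014 in female sham. It fell in males (log2 -0.46, adjusted p = 0.0254), a call lost without male TAC 2 or 5 or male sham 3 or 4 (adjusted p of 0.0606 to 0.0932), and its female value of -0.16 did not pass (adjusted p = 0.508). Its averaged fall (log2 -0.31, adjusted p = 0.0223) was lost without female TAC 3 or female sham 3 (adjusted p = 0.0510 and 0.0530). Which transcripts of the gene each probe set reports was not tested.

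**Figure D2:**
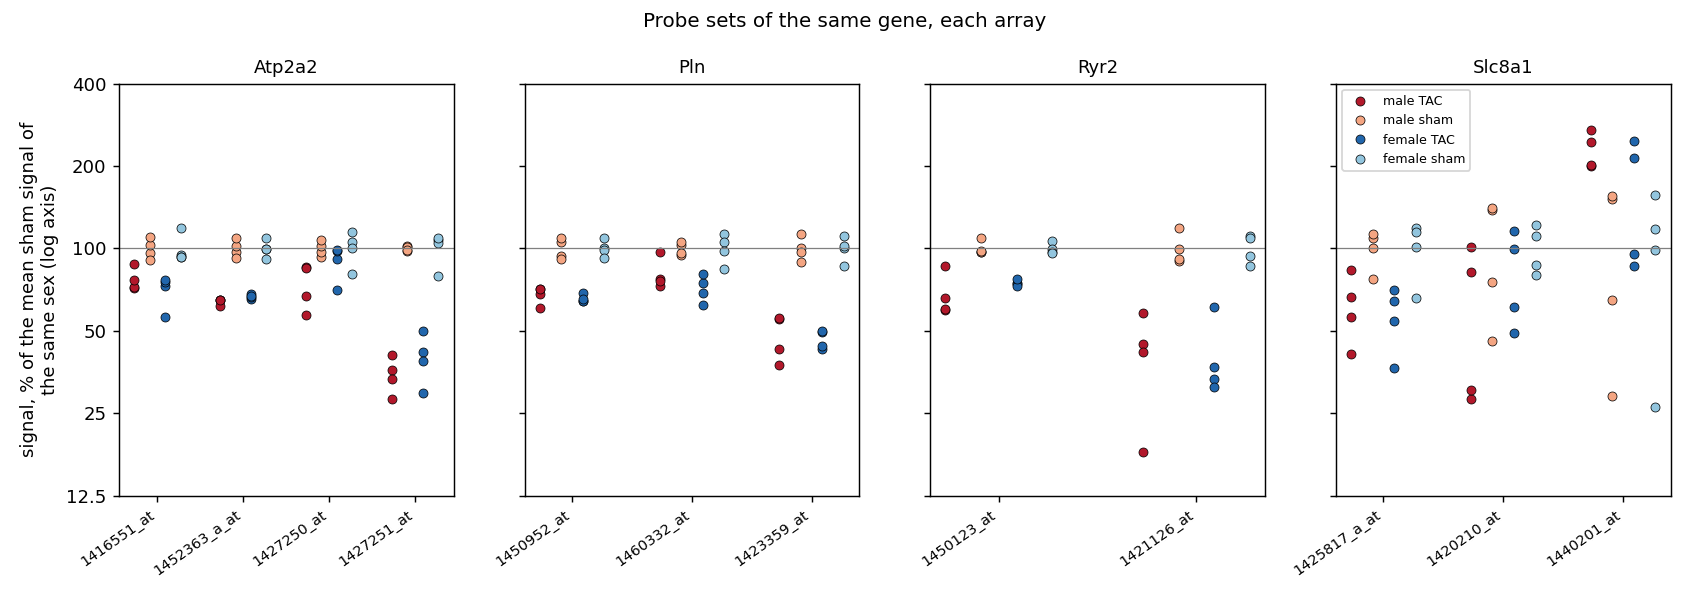
Signal of each array as a percentage of the mean sham signal of the same sex (log axis), for every probe set of Atp2a2, Pln, Ryr2 and Slc8a1, with colours for the 4 groups. Mean TAC signals of the Atp2a2 probe sets run from 34.6% (1427251_at) to 77.1% (1416551_at) of sham in males, and the Slc8a1 probe sets do not share a direction.

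Pln encodes phospholamban, the small membrane protein that inhibits SERCA2 until it is phosphorylated (chr10:53337686-53345999). Its brightest probe set, 1450952_at, had signals of 26747, 25588, 22758 and 26865 on the male TAC arrays, against 35275, 34619, 39849 and 41036 on the male sham arrays. It had 21589, 21435, 23018 and 21964 on the female TAC arrays, against 33562, 33032, 36610 and 30789 on the female sham arrays. TAC arrays were below sham arrays throughout both sexes. On this probe set Pln fell by 0.56 in males (SE 0.08, adjusted p = 0.000100) and by 0.60 in females (SE 0.08, adjusted p = 7.17e-05), and on quantile normalization the male value was -0.35 (adjusted p = 0.00271). Probe set 1423359_at showed the greater change, with 15128, 13173, 19436 and 19592 on the male TAC arrays, against 35495, 31394, 34239 and 39795 on the male sham arrays. It had 18041, 15596, 16088 and 18161 on the female TAC arrays, against 36559, 37330, 40457 and 31488 on the female sham arrays. There it fell 2.11-fold in males (log2 -1.08, adjusted p = 4.17e-06) and 2.14-fold in females (log2 -1.10, adjusted p = 5.61e-06), again with no overlap. Probe set 1460332_at fell by 0.32 in males (adjusted p = 0.0449) and by 0.48 in females (adjusted p = 0.00410). On quantile normalization the values were -0.13 in males (adjusted p = 0.366) and -0.26 in females (adjusted p = 0.0640), and neither passed. Male TAC 5, at 29504, lies within the range of the male shams there, and the male call was lost without any 1 of male TAC 1, 2 or 4 or of the 4 male shams (adjusted p of 0.0549 to 0.132).

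The ratio of inhibitor to pump was compared within arrays. On the brightest probe set of each gene, the log2 ratio of Pln to Atp2a2, TAC minus sham, had a value of -0.19 in males (exact permutation p = 0.0857, or 0.214 adjusted over 6 tests), and its female value was -0.09 (exact permutation p = 0.514, adjusted 0.514). For the average of both it was -0.14 (exact permutation p = 0.0947, adjusted 0.214). An unequal change of pump and inhibitor was therefore not detectable on this pair of probe sets. With 4 against 4 arrays the smallest 2-sided p is 0.0286, which alone would not pass after adjustment over the 6 tests. Other pairs were not tested. In males the log2 fold changes ran from -0.32 to -1.08 for Pln and from -0.38 to -1.52 for Atp2a2, so the direction of the ratio depends on the pair.

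Sln encodes sarcolipin, a SERCA inhibitor that is abundant in the atrium and scarce in the adult mouse ventricle (chr9:53850251-53853849). Both of its probe sets were below the limit of dim signal, and they were read from a fit without the limit (22626 probe sets), where 9.46% of all passed in males, 7.89% in females and 16.7% for the average. Probe set 1420884_at had signals of 19.6, 26.7, 23.8 and 309.7 on the male TAC arrays, against 8.3, 12.4, 10.8 and 16.6 on the male sham arrays. It had 264.8, 164.7, 7.5 and 79.0 on the female TAC arrays, against 18.7, 13.4, 30.9 and 18.1 on the female sham arrays. Male TAC 5 and female TAC 1, 2 and 5 were high, male TAC 1, 2 and 4 lay within the range of all sham arrays, and female TAC 3 was the lowest array of all. The log2 fold change was 1.26 in males (SE 0.67, adjusted p = 0.296) and 1.53 in females (SE 0.67, adjusted p = 0.195), so neither passed. Without male TAC 5 the male value was 0.49 (adjusted p = 0.715), and without female TAC 3 the female value passed (log2 2.24, adjusted p = 0.0309). Their average was 1.39 (SE 0.47, adjusted p = 0.0486). That call was lost without male TAC 5 (log2 1.01, adjusted p = 0.0877), without female TAC 1, 2 or 5 (adjusted p of 0.0679 to 0.103) and without any 1 of the 8 sham arrays (adjusted p of 0.0581 to 0.0821). It was also lost with a pseudocount of 1 or 64 (adjusted p = 0.0584 and 0.0576), and with the 18S signal as a covariate the average was 2.77 (adjusted p = 0.0115). The other probe set, 1420883_at, averaged 30.2 ± 7.2 in male TAC and 31.6 ± 25.2 in female TAC, against 52.7 ± 37.8 in male sham and 35.9 ± 12.0 in female sham, and did not pass (averaged log2 -0.34, adjusted p = 0.488).

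The 3 arrays with the highest Sln were also the highest in atrial light chains. Myl7, the regulatory light chain of atrial myosin, had 748 on male TAC 5, 137 to 169 on the remaining TAC arrays of that sex, and 731, 668, 15.9 and 171 on female TAC 1, 2, 3 and 5. The sham arrays had 8.3 to 71.7 for Myl7 in males and 11 to 129 in females. Myl4, the essential light chain of the atrium and of the fetal ventricle, had 1322 on male TAC 5 and 1304 and 1192 on female TAC 1 and 2, above all other arrays. The summed signal of 4 atrial markers without Sln was 17961 to 41682 in male TAC and 14143 to 37454 in female TAC, against 4252 to 6886 in male sham and 3221 to 4331 in female sham. Nppa, the natriuretic peptide gene that the loaded ventricle also expresses, is 1 of the 4. Its signal was 39484 on male TAC 5, the highest male TAC value. It was 18173 and 12095 on female TAC 1 and 2, below female TAC 3 and 5 (36790 and 24998). Bmp10, also among the 4, was lower on the 3 arrays with the highest Sln than on the rest of their groups. Male TAC 5 had 128 for Bmp10, and male TAC 1, 2 and 4 had 279, 302 and 165. Female TAC 1 and 2 had 150 and 188, and female TAC 3 and 5 had 333 and 261. Whether atrial tissue in some samples has a part in the Sln values was not tested.

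**Figure D3:**
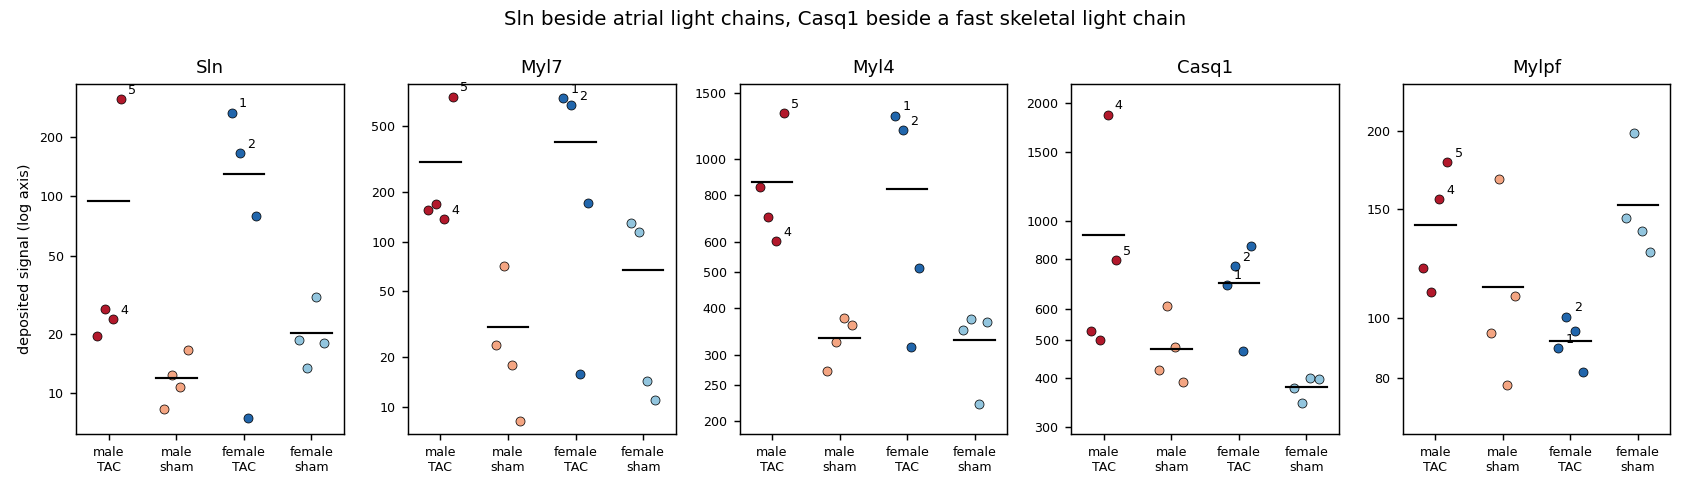
Deposited signal (log axis) of Sln, the atrial light chains Myl7 and Myl4, Casq1 and the fast skeletal light chain Mylpf on the 16 arrays, with male TAC 4 and 5 and female TAC 1 and 2 numbered and group means as bars. Male TAC 5 and female TAC 1 and 2 are the 3 highest arrays for Sln, Myl7 and Myl4, whereas male TAC 4 is highest for Casq1 alone.

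Slc8a1 encodes NCX1, the sodium-calcium exchanger of the cardiomyocyte membrane (chr17:81373105-81738387), and all 3 of its probe sets were dim. Probe set 1425817_a_at had signals of 115, 185, 157 and 233 on the male TAC arrays, against 281, 304, 217 and 316.5 on the male sham arrays. It had 115, 170.3, 221 and 202 on the female TAC arrays, against 319, 207, 373 and 359.6 on the female sham arrays. The groups overlap in both sexes, through male TAC 5 and male sham 3 and through female TAC 3 and female sham 2. The log2 fold change was -0.68 in males (SE 0.26, adjusted p = 0.0760), which missed the threshold, and it passed when male TAC 5 was left out (log2 -0.82, adjusted p = 0.0425). It passed in females, at -0.78 (SE 0.26, adjusted p = 0.0454), but not without any 1 of female TAC 1, 2 or 5 or female sham 1, 3 or 4 (adjusted p of 0.0557 to 0.142). Averaged over the sexes Slc8a1 fell by 0.73 on this probe set (SE 0.18, adjusted p = 0.00466), a call lost with the 18S signal as a covariate (log2 -0.47, adjusted p = 0.290).

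The other Slc8a1 probe sets did not settle the direction of the gene. Probe set 1420210_at averaged 106 ± 65 in male TAC and 186 ± 71 in female TAC, against 175 ± 83 in male sham and 229 ± 45 in female sham, and did not pass (averaged log2 -0.51, adjusted p = 0.191). Probe set 1440201_at, below the limit, averaged 131 ± 20 in male TAC and 107 ± 54 in female TAC, against 57.3 ± 36.0 in male sham and 66.8 ± 36.6 in female sham. Its averaged log2 fold change of 0.88 did not pass (adjusted p = 0.0793), and its sign is opposite to that of the other probe sets. The log2 ratio of Slc8a1 to Atp2a2 on their brightest probe sets differed between TAC and sham by -0.30 in males (exact permutation p = 0.143, adjusted 0.214) and by -0.27 in females (exact permutation p = 0.429, adjusted 0.514), and no difference was detectable.

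Cacna1c encodes the pore-forming subunit of the cardiac L-type calcium channel (chr6:118587240-119197384). Its probe set 1421297_a_at had signals of 772, 920, 892 and 1009 on the male TAC arrays, against 1665, 1470, 1265 and 1405 on the male sham arrays. It had 881, 1190, 1113 and 1161 on the female TAC arrays, against 1776, 1473, 1645 and 1578 on the female sham arrays. The groups do not overlap in either sex. Cacna1c fell 1.60-fold in males (log2 -0.68, SE 0.13, adjusted p = 0.000855) and 1.49-fold in females (log2 -0.57, SE 0.13, adjusted p = 0.00408).

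Cacnb2 encodes the β2 subunit, which brings the channel to the membrane and sets its gating (chr2:14603861-14988811). Its probe set 1452476_at had signals of 18.3, 11.2, 28.0 and 130.2 on the male TAC arrays, against 271.2, 250.6, 221.2 and 305.6 on the male sham arrays. It had 157.3, 77.4, 31.1 and 159.4 on the female TAC arrays, against 221.6, 442.1, 451.0 and 526.5 on the female sham arrays. All TAC arrays were below all sham arrays of the same sex, and male TAC 5 was well above the other male TAC arrays. Both TAC means were below the limit signal of 130.8, as were all 4 male TAC arrays and 2 of the 4 female TAC arrays, so this probe set was kept through its sham arrays and the size of its change was not measured. With TAC arrays under the limit set to it, TAC was at least 1.88-fold lower in males and at least 2.55-fold lower in females. These bounds were not tested. The limma fit used the signals under the limit as they stand, and its adjusted p was 0.00114 in males and 0.00933 in females. With the 18S signal as a covariate neither sex passed (adjusted p = 0.334 in males and 0.140 in females).

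**Figure D4:**
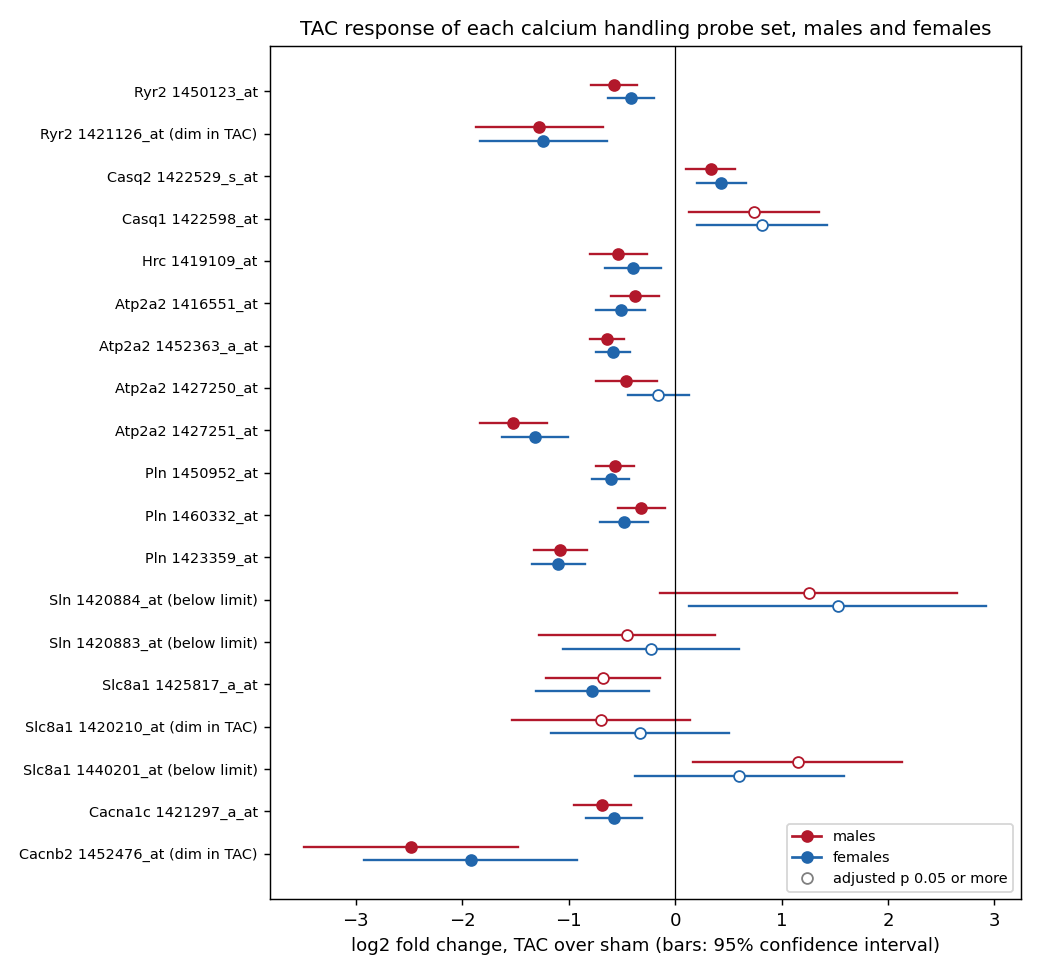
Log2 fold change, TAC over sham, of each of the 19 probe sets in males (red) and females (blue), with 95% confidence intervals and hollow points where the adjusted p was 0.05 or more. The intervals of the sexes overlap on every probe set, and the sizes of the 3 probe sets marked dim in TAC were not measured closely, since a TAC mean of each lies below the limit.

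The sexes were compared directly. The 16 probe sets above the limit had the same sign in both sexes, 12 of them passed in both, and 7 of the 9 genes had a probe set that passed in both. The 12 include 1421126_at of Ryr2 and 1452476_at of Cacnb2, which were kept through their sham arrays. Cacnb2 is among the 7 only through such a probe set. For the female response minus the male response, 0 of the 16 passed in limma and 0 had an unadjusted p under 0.05, where 0% of all probe sets passed. The smallest unadjusted p was 0.137, and the 95% intervals of the 16 differences reached from -0.857 to 1.98 on the log2 scale, which does not show that the sexes respond alike. Within TAC, female against male, 0 of the 16 passed in limma, where 0.0663% of all probe sets did, and 4 had an unadjusted p under 0.05. These 4 were 1427251_at of Atp2a2, 1450952_at of Pln, 1421297_a_at of Cacna1c and the dim 1452476_at of Cacnb2. The share of all probe sets under that unadjusted p was not counted. Within sham, female against male, 0 passed in limma, where 0.309% of all probe sets did, and 0 had an unadjusted p under 0.05. Among the 12, only 1452363_a_at and 1427251_at of Atp2a2 and 1450952_at and 1423359_at of Pln passed in both sexes under every alternative setting. Each of the others lost a call in some setting, so their order between TAC and sham is less sure. For none of the 16 was the order resolved between the sexes.

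Genes whose pattern was most like that of Atp2a2, Cacnb2 or Sln were found by Pearson's r of log2(signal + 16) over the 16 arrays, as a description. These arrays share the operation, the quality measures and the scaling. For Atp2a2 they were Myl2, the ventricular regulatory light chain (r = 0.953), Lpl, lipoprotein lipase (r = 0.952), and Pno1, a ribosome assembly factor (r = 0.929). For Cacnb2 they were Azi2 (r = 0.936), the mitochondrial transcription factor gene Mterf3 (r = 0.917) and the sialomucin gene Cd164 (r = 0.911). For Sln they were Cggbp1 (r = 0.824), Myl4 (r = 0.822) and Ammecr1l (r = 0.804).

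Other genes of calcium release, uptake, entry, exchange and signalling rose and fell in more even numbers. Of 88 listed genes, 72 were named on the array and 46 were above the limit on the probe set of highest mean. Averaged over the sexes, 8 of the 46 rose and 5 fell, where 13.4% of 8272 genes rose and 13.1% fell on 1 probe set per gene. Their median log2 fold change was -0.06, beside -0.01 over the 8272 genes. In males 6 rose and 2 fell, where 8.1% and 7.77% of genes did, and in females 4 rose and 2 fell, where 6.37% and 6.69% did. Each count is within a few genes of what the shares of all genes would give. The falls in each comparison include Prkar2a, which was kept through its sham arrays.

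Among 12 partners of the release channel, 3 rose and 0 fell averaged over the sexes, where 13.4% of all genes rose and 13.1% fell. The same shares apply to the lists below, and no list was tested against them. Fkbp1a, the immunophilin FKBP12 that binds ryanodine receptors, rose by 0.50 (SE 0.08, adjusted p = 6.04e-05). S100a1, a calcium sensor of the release complex, rose by 0.37 (SE 0.07, adjusted p = 0.000501), and Tmem38a, the TRIC-A potassium channel of the reticulum, rose by 0.25 (adjusted p = 0.0380). Jph2, which holds the reticulum to the transverse tubules, had a value of -0.32 that did not pass (adjusted p = 0.0570).

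Among 9 genes listed under uptake and buffering, which include subunits of protein phosphatase 1, 3 rose and 1 fell. Ppp1r3c, a glycogen-targeting subunit of protein phosphatase 1, rose 2.73-fold (log2 1.45, adjusted p = 2.55e-07), and Ppp1r3a, the related subunit of striated muscle, fell by 0.56 (adjusted p = 0.00886). Hax1, a phospholamban-binding protein, rose by 0.59 (adjusted p = 0.0132), and Calr, the reticulum calcium buffer calreticulin, rose by 0.21 (adjusted p = 0.0448).

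Among 7 genes of sarcolemmal entry, 1 rose and 1 fell averaged over the sexes. Cacna2d1, the auxiliary α2δ subunit of the L-type channel, fell by 0.37 (SE 0.11, adjusted p = 0.0116), as did the pore subunit above. Ahnak, a large scaffold protein that binds the β subunit, rose by 0.21 (adjusted p = 0.0389). Cacna1d, the pore subunit of pacemaker cells, and Orai1, a store-operated channel, had values of -0.36 (adjusted p = 0.0630) and 0.25 (adjusted p = 0.0701) and did not pass.

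Of 5 genes that exchange sodium and calcium or act beside the exchanger, 0 passed in limma for the average of both sexes, and 0 had an unadjusted p under 0.05. Those with the smallest p were Letm1 of the mitochondrial membrane (log2 -0.28, adjusted p = 0.130), the sodium pump β1 subunit gene Atp1b1 (-0.22, adjusted p = 0.167), the pump regulator phospholemman gene Fxyd1 (-0.16, adjusted p = 0.171) and Vdac1 (-0.24, adjusted p = 0.192).

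Of 13 genes of calcium-dependent and cAMP signalling, 1 rose and 3 fell averaged over the sexes. Rcan1, an inhibitor of calcineurin whose transcript calcineurin activity raises, rose 2.98-fold (log2 1.58, SE 0.20, adjusted p = 4.89e-06), and it rose in males (1.79, adjusted p = 0.000142) and in females (1.36, adjusted p = 0.00216). Prkar2a, a regulatory subunit of protein kinase A, had a value of -1.11 (adjusted p = 0.000904). Its mean signals of 130.4 in male TAC and 111 in female TAC were below the limit signal of 130.8. The sham means were 301 in males and 231 in females, so Prkar2a was kept through its sham arrays and the size of its fall was not measured. Ppp3cb, a catalytic subunit of calcineurin, fell by 0.57 (adjusted p = 0.0139), and Ppp2r5a, a regulatory subunit of protein phosphatase 2A, fell by 0.25 (adjusted p = 0.0449).

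**Figure D5:**
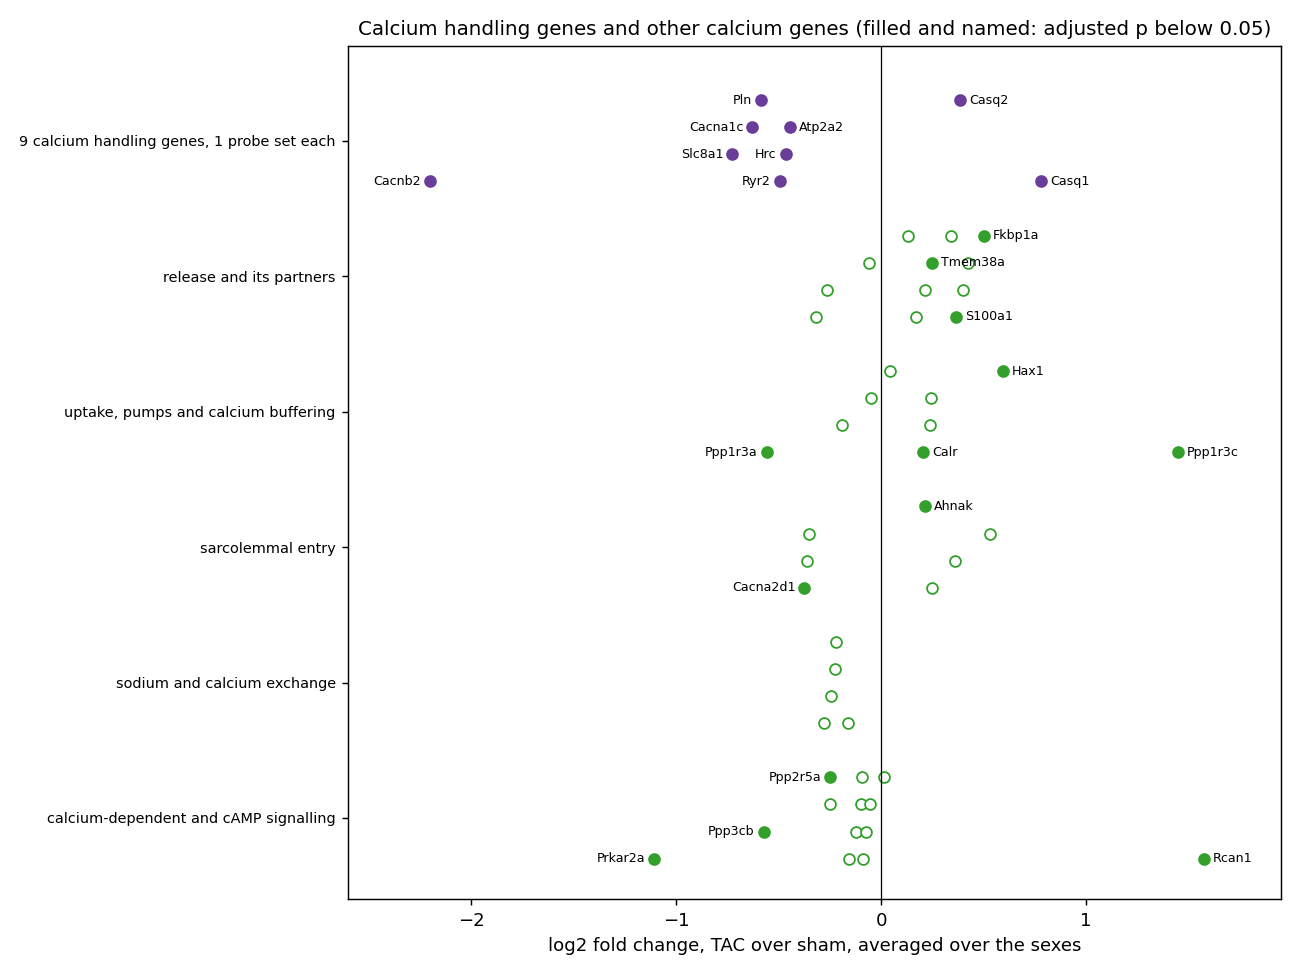
Log2 fold change, TAC over sham averaged over the sexes, of the 9 calcium handling genes above the limit (purple, 1 probe set each) and of 46 other calcium genes in 5 lists (green), with filled and named points where the adjusted p was below 0.05. Of the 9 purple genes 7 lie left of 0 and both calsequestrins lie right of it, while 8 of the green genes rose and 5 fell. Prkar2a, among the 5, was dim in TAC.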

How the data were processed

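RNA of the left ventricle of 16 mice was hybridised to 16 arrays, 1 animal each, in 4 groups of 4. The deposited table holds signal intensity per probe set, computed by the authors with GCOS per the submitters' processing notes. The version, settings and detection calls are not given in the sources used here, so depth is not defined, and precision is limited by how many arrays there are. The deposited intensities had a 2% trimmed mean of 500.21 to 500.25 on every array, as tested on the values, and this scaling was kept. The series text names a rat-style array, whereas the probe sets are those of the mouse 430A array.

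From these values log2(signal + 16) was computed. The 64 AFFX controls and the dimmest 40% of the other probe sets by mean over all arrays were left out. This left 13576 probe sets and corresponds to a signal of 130.8. Members below it were read from the same fit over 22626 probe sets. Group differences came from limma 3.58.1 (R 4.3.3), 2-sided and with Benjamini-Hochberg adjustment, in a model of 4 group means over 16 arrays whose moderation followed an intensity trend. Ratios of 2 genes within arrays were compared with exact 2-sided permutation tests. The fit was tested on simulated data. The members, the lists of other calcium genes and markers, and the tests were chosen with earlier results of these data known. Named were all members on all their probe sets, up to 4 genes of each calcium list by smallest averaged p, and 3 genes most like Atp2a2, Cacnb2 and Sln. The platform annotation named the probe sets, of which 20380 had 1 symbol, 691 several and 1555 none. Locations and promoters come from RefSeq tables of GRCm38.p6.

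Besides the ventricular, atrial, skeletal muscle and fibroblast markers, 4 lists were read averaged over the sexes. Of 6 macrophage markers 4 rose, of 3 smooth muscle markers 1 rose, and of 6 endothelial and 1 erythroid marker 0 passed in limma, with 1 and 0 at an unadjusted p under 0.05. Of all genes 13.4% rose and 13.1% fell. Of the smooth muscle markers 1 rose in males (median log2 fold change 0.41) and 1 fell in females (median -0.42). For the female response minus the male response 0 of these 3 passed in limma, and 1 had an unadjusted p under 0.05.

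Samples share replicate numbers in their titles. The deviations of TAC and sham arrays of the same number correlated at 0.0395, 0.115 and -0.0302 in males and at 0.0538, 0.0442 and -0.0118 in females, so the numbers were not taken to pair animals. Alternatives changed the filter (none, or the dimmest 60% out), the scaling (quantile normalization or median centring), the pseudocount (1 or 64), the moderation (without trend, or with array weights) and the design (only the compared groups, a replicate block, each quality covariate, or each array left out in turn).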

Additional observations from a re-analysis of the deposited data

Results flagged for a closer look

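Within the 76 groups of 4 arrays tested, 1 array stood apart from the other 3 in 6 cases, where chance gives about 1 in 20. Ryr2 (1450123_at) had a signal of 10095.7 on male sham 3, against 8973.1 to 9065.2 on the other male shams. Atp2a2 was involved in 4 cases. Its probe set 1416551_at had 26244.4 on female TAC 2, against 34224.3 to 35875.0 on the other female TAC arrays, and 55688.2 on female sham 1, against 43614.8 to 44510.8 on the other female shams. Its probe set 1427251_at was low on the same female sham 1, at 1772.6 against 2328.8 to 2434.1. Its probe set 1452363_a_at had 24565.5 on male TAC 4, where the remaining male TAC arrays had 25761.0 to 25903.5, a small difference that shows because those 3 arrays lay close together. Sln (1420884_at) had 309.7 on male TAC 5, while male TAC 1, 2 and 4 had 19.6 to 26.7.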

How the results depend on the processing

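Over 1243 alternative values of single probe sets, 1103 kept their direction and side of the threshold, 130 kept the direction and no longer passed, 10 kept it and newly passed, and 0 changed direction where called. The ratios of 2 genes were not among these values. With the 18S rRNA signal as a covariate, 7 calcium handling probe sets passed in males and 8 averaged over the sexes, and of the other calcium genes 4 passed in males and 5 averaged over the sexes. With the Gapdh 3′ to 5′ ratio, 4 calcium handling probe sets passed in males, 4 in females and 4 for the average, namely 1452363_a_at and 1427251_at of Atp2a2 and 1450952_at and 1423359_at of Pln in each comparison. Of the other calcium genes 0 passed in males, 1 in females and 2 for the average with that ratio. Without a filter 3 other calcium genes passed in females. The cause of these changes was not tested. Leaving out 1 array at a time gave 9 to 12 calcium handling probe sets in males, 11 to 13 in females, 14 to 15 for the average and 0 for the comparisons of the sexes. For the other calcium genes it gave 6 to 10 in males, 3 to 6 in females and 9 to 15 for the average, with the 3 reached without female sham 1 or 2. With the replicate block, 11 calcium handling probe sets passed in males, 11 in females, 14 for the average and 0 for the comparisons of the sexes, and of the other calcium genes 12, 5 and 15 passed. Chosen after seeing the data, leaving out the 3 probe sets with a TAC mean below the limit gave 11 calcium handling probe sets in males, 11 in females and 13 for the average. Dim signal limits Sln, Slc8a1, Cacnb2 and 1421126_at of Ryr2, whose TAC arrays lie near or below the limit. It also limits Prkar2a of the other calcium genes, whose TAC means lie below the limit.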
